A study of Arabidopsis thaliana with 4 samples.

Results

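HSP17.6C (AT1G53540), HSP17.6B (AT2G29500), HSP22 (AT4G10250) and HSA32 (AT4G21320) are heat shock genes of Arabidopsis thaliana. They were chosen by symbol or locus code among probe sets annotated to exactly 1 gene, which gave 4 genes of 13356 measured this way, each with 1 probe set. Expression was measured on 4 Affymetrix arrays of whole seedlings of ecotype Columbia, labelled with an age of 15 days. The 2 control arrays come from seedlings for which no treatment is given in the source label, and the 2 GSH arrays from seedlings given GSH (reduced glutathione, the main small thiol of plant cells) for 72 hours after that growth. The labels name no mutation, transgene or other agent in either group. Neither the GSH dose nor the handling of control seedlings over those 72 hours is given in the labels, so the groups may not match in age. Replicates are titled biological without word of separate cultures, and the spread behind each p-value is that between these arrays, which may be technical.

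Small heat shock proteins are chaperones that bind partly unfolded proteins and keep them from clumping until HSP70 and HSP100 machines refold them. Plants have an unusually large family of them, with members in the cytosol, endoplasmic reticulum, chloroplast and mitochondria, and heat shock transcription factors switch many of the genes on in heat and in oxidative stress. HSP17.6C and HSP17.6B encode cytosolic proteins of class I. HSP22 encodes the small heat shock protein of the endoplasmic reticulum. HSA32 encodes an unrelated heat-induced protein that seedlings need to keep acquired heat tolerance over days, in interplay with HSP101.

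For all 4 genes both GSH arrays lay above both control arrays in log2 value, and 3 genes passed the test. HSP17.6C was 2.77-fold, HSP17.6B 1.96-fold and HSA32 1.33-fold higher in seedlings given GSH. HSP22 had a dim signal and did not pass. Among all 22746 gene probe sets, limma called 16.2% higher and 17.5% lower at an adjusted p under 0.05, and both GSH arrays lay above both control arrays for 31.2%. A call alone is therefore common on these arrays, and the size of a change and its spread say more about each gene.

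HSP17.6C stood at log2 values of 7.86 and 7.73 on the control arrays and 9.22 and 9.30 on the GSH arrays. Both GSH arrays were far above both control arrays, and the gaps between replicates (0.12 and 0.08) were small beside the gap between groups. The mean rose from 7.79 to 9.26, a log2 difference of 1.47 ± 0.08 (moderated SE, n = 2 per group, 95% interval 1.28 to 1.66, limma adjusted p = 4.78e-05). Of all probe sets, 0.875% (199) had a difference this large or larger, which puts this class I chaperone gene near the top of the arrays.

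HSP17.6B stood at 9.93 and 9.91 on the control arrays and at 10.83 and 10.96 on the GSH arrays. The control arrays were almost equal, 0.02 apart, and the GSH arrays were 0.13 apart, with no overlap between the groups. The mean rose from 9.92 to 10.89, a log2 difference of 0.97 ± 0.08 (SE, n = 2 per group, 95% interval 0.79 to 1.16, limma adjusted p = 0.000203). A difference of this size or more was found for 2.43% of probe sets.

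HSA32 stood at 8.08 and 8.13 on the control arrays and at 8.47 and 8.56 on the GSH arrays. The groups did not overlap, and replicates were 0.06 and 0.09 apart. Its mean rose from 8.11 to 8.52, a log2 difference of 0.41 ± 0.07 (SE, n = 2 per group, 95% interval 0.24 to 0.59, limma adjusted p = 0.00552). A rise of this size is ordinary on these arrays, since 10.3% of probe sets had one as large or larger.

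HSP22 stood at 4.06 and 3.69 on the control arrays and at 4.18 and 4.26 on the GSH arrays. The control arrays differed by 0.37, a gap larger than that of 98.5% of probe sets, and control replicate 1 lay close below the GSH arrays. The log2 difference of 0.34 ± 0.12 (SE, n = 2 per group, 95% interval 0.05 to 0.64) did not pass (unadjusted p = 0.0295, limma adjusted p = 0.0775). Without control replicate 1 the difference was 0.53 (limma adjusted p = 0.00629), and without control replicate 2 it was 0.16 (limma adjusted p = 0.329), so the value rests on which control array is used. The mean over the 4 arrays, 4.05, lies within the lowest 25% of probe sets (up to 4.06), and no detection calls were used, so a signal over background was not established for this transcript and the size of its difference is uncertain. A difference of this size or more was found for 12.9% of probe sets.

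**Figure D1:**
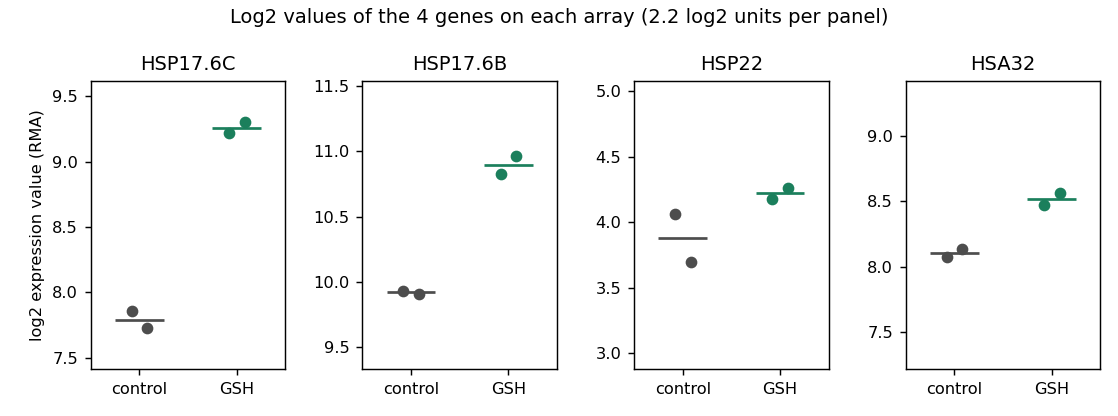
Log2 expression values (vertical axis, RMA) of HSP17.6C, HSP17.6B, HSP22 and HSA32, 1 panel per gene, for the 2 control and 2 GSH arrays (points) with the group means (lines). Each panel spans the same height, so distances can be compared between genes: the groups are 1.47 apart for HSP17.6C, 0.97 for HSP17.6B, 0.41 for HSA32 and 0.34 for HSP22, where the control arrays are spread apart.

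Without sharing of the spread across probe sets, HSP17.6C passed (adjusted p = 0.047), while HSP17.6B (adjusted p = 0.056) and HSA32 (adjusted p = 0.0873) did not, since 2 residual degrees of freedom per probe set leave little power. The RNA is from whole seedlings, so more cells that hold a transcript and more transcript per cell cannot be told apart.

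The sizes of the rises were compared within arrays. On each array, the log2 value of HSP17.6C minus that of HSP17.6B was -2.08 and -2.18 on the control arrays and -1.61 and -1.66 on the GSH arrays, so the measured difference was 0.50 log2 units larger for HSP17.6C than for its class I relative (SD within groups 0.06, n = 2 per group). The groups of this within-array difference did not overlap. It was 1.06 log2 units larger for HSP17.6C than for HSA32 (SD 0.09) and 0.56 larger for HSP17.6B than for HSA32 (SD 0.04), again with no overlap. Set against HSP22, the values were 1.12 for HSP17.6C (SD 0.12), 0.63 for HSP17.6B (SD 0.17) and, for HSP22 minus HSA32, -0.07 (SD 0.21). These sizes are as uncertain as the dim signal of HSP22 itself and order nothing. In the exact two-sided permutation test over the 4 arrays, 5 of the 6 pairs reached p = 0.333, the smallest that 2 arrays against 2 allow (0.4 after Benjamini-Hochberg adjustment over the 6 pairs), and HSP22 with HSA32 gave p = 1. No pair thus passed its test, and the gaps between HSP17.6C, HSP17.6B and HSA32 are larger than the spread between replicates without being shown to differ by that test. Levels of different probe sets are not ranked here, because probes differ in how strongly they bind their transcripts.

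Class I small heat shock protein genes are close copies of each other. Probe sets for HSP17.6C and HSP17.6B carry a single gene in the annotation, but probe sequences were not used here, and cross-binding of related transcripts was not tested. A probe set that the annotation assigns to several genes was not used for any of them. This left out 2 probe sets that hold 3 genes of the lists described next.

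The wider heat shock machinery was described from 7 lists with 96 genes (small heat shock proteins, HSP100 and HSA32, HSP90, HSP70, HSP60, heat shock factors, and cochaperones with heat response regulators). Only 22 of the 96 genes had a probe set with 1 gene, 18 of them besides the 4 genes above. No gene of the HSP90 list (7), the HSP60 list (7) or the heat shock factor list (21) was among them, nor HSP101, so those parts of the response were not analysed here. Of the 18 other genes, 9 rose, 1 fell and 8 did not pass, that is 50% higher beside 16.2% of all probe sets. Their median log2 difference was 0.22, beside -0.01 over all probe sets. The 2 sets are not matched in brightness. Of the 18 genes, 2 lay within the lowest 25% of mean values. All the others were bright, with control means at percentile 63.7 of all probe sets or above. No share of calls was taken over probe sets as bright as these. With that 25% of probe sets removed, 3783 of 17059 were called higher. The lists were drawn up with earlier results on these arrays known, so these counts describe the genes and carry no test of their own.

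Among 8 other small heat shock protein genes, 4 rose, 0 fell and 4 did not pass, with a median log2 difference of 0.20. The tables give these genes by locus code, and their place in the family is that of the list. AT5G51440 had the largest log2 difference of them, with log2 values of 10.52 and 10.55 on the control arrays and 11.09 and 10.92 on the GSH arrays. The difference was 0.47 ± 0.08 (SE, n = 2 per group, limma adjusted p = 0.00562) beside 0.97 for HSP17.6B.

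AT5G37670 rose as well, from 8.64 and 8.73 to 9.06 and 9.05, a log2 difference of 0.37 ± 0.07 (SE, n = 2 per group, limma adjusted p = 0.0079). Smaller rises were measured for AT4G21870 (0.25 ± 0.07) and AT2G19310 (0.23 ± 0.07), with limma adjusted p-values of 0.0323 and 0.0438. These last 2 lost their call whenever any 1 array was left out. Both GSH arrays lay above both control arrays for 5 of the 8 genes, these 4 included, beside 31.2% of all probe sets.

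The remaining genes of the family did not pass. AT1G54050 stood at 0.17 ± 0.08 log2 units with groups that did not overlap, and AT5G54660 at 0.10 ± 0.11 with groups that did. AT1G52560 (-0.13 ± 0.13) and AT5G47600 (-0.18 ± 0.11) had control means of 3.93 and 3.94 and were as dim as HSP22, with the same doubt about a signal over background. Of the 11 small heat shock protein genes measured in all, the 3 within the lowest 25% of mean values were thus all among the 5 that did not pass. The 6 that rose include HSP17.6C and HSP17.6B, which were chosen with earlier results known. With the chosen genes left out, 4 of 8 rose, beside 16.2% of all probe sets called higher.

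**Figure D2:**
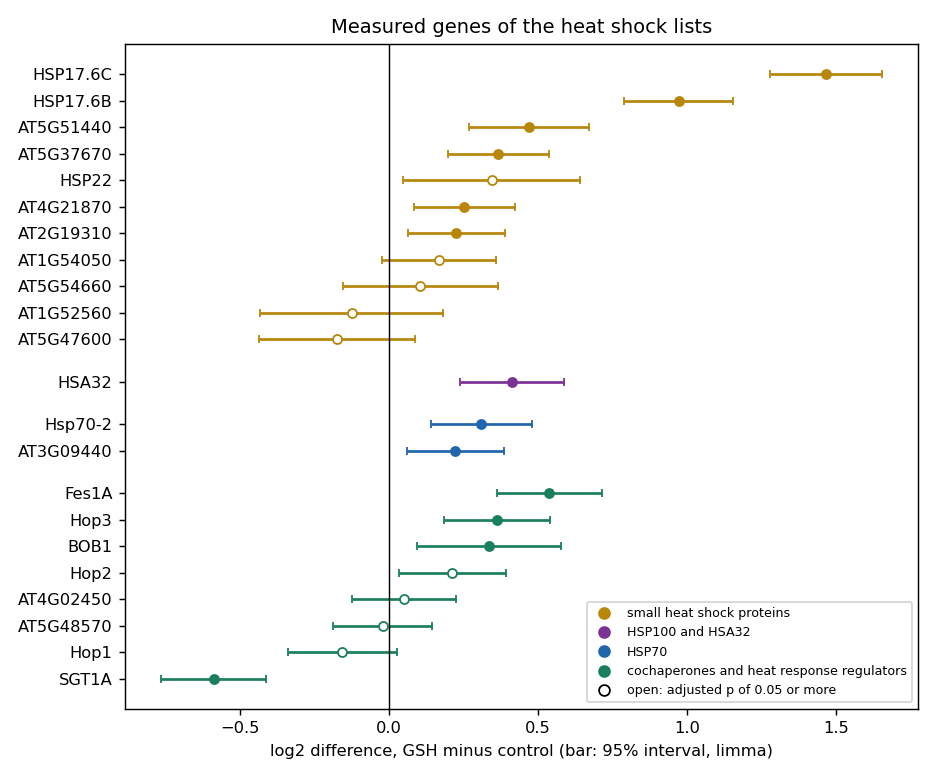
Log2 difference, GSH minus control (horizontal axis), with 95% intervals from limma, for the 22 measured genes of the heat shock lists, coloured by list. Filled points passed at an adjusted p under 0.05: 12 genes were higher, HSP17.6C and HSP17.6B by most, and SGT1A was lower.

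HSP70 proteins take over substrates from small heat shock proteins and refold them with ATP. Of the list's 16 genes 2 were measured, and both rose a little. Hsp70-2 went from 11.58 and 11.65 on the control arrays to 11.94 and 11.91 on the GSH arrays (log2 difference 0.31 ± 0.07, SE, n = 2 per group, limma adjusted p = 0.0156). AT3G09440 went from 12.30 and 12.31 to 12.51 and 12.54 (0.22 ± 0.07, limma adjusted p = 0.0455), and it lost its call when any 1 array was left out. The call for Hsp70-2 was lost without control replicate 1 or without GSH replicate 1. The control means stood at percentile 98.0 of all probe sets for Hsp70-2 and 99.1 for AT3G09440.

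Cochaperones hand clients to HSP70 and HSP90 or drive their ATP cycle, and 8 of the 23 genes of that list were measured. Fes1A, which protects cytosolic HSP70 from degradation in heat, had the largest log2 difference of them, and stood at 10.72 and 10.78 on the control arrays and 11.25 and 11.34 on the GSH arrays. The difference was 0.54 ± 0.07 (SE, n = 2 per group, limma adjusted p = 0.00188), with no overlap and replicates less than 0.1 apart.

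The 3 Hop genes, whose proteins bridge HSP70 and HSP90, did not all pass. Hop3 rose by 0.36 ± 0.07 log2 units (10.62 and 10.53 against 10.97 and 10.90, limma adjusted p = 0.0101). Hop2 stood at 0.21 ± 0.08 (limma adjusted p = 0.0736) and Hop1 at -0.16 ± 0.08 (limma adjusted p = 0.171), and neither passed. The difference between Hop3 and Hop1 was not tested. Without GSH replicate 1 or without control replicate 2 the call for Hop3 was lost.

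BOB1, a NudC-type chaperone gene needed for development and heat tolerance, rose by 0.33 ± 0.10 (9.60 and 9.42 against 9.75 and 9.95, limma adjusted p = 0.0433), and the call was lost without GSH replicate 2 or control replicate 2. SGT1A, a cochaperone of HSP90 that acts in plant immunity, was the single gene of the lists that fell. It went from 12.09 and 12.11 on the control arrays to 11.56 and 11.46 on the GSH arrays, a log2 difference of -0.59 ± 0.07 (SE, n = 2 per group, limma adjusted p = 0.00126). AT4G02450 (0.05) and AT5G48570 (-0.02) of the same list did not pass.

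**Figure D3:**
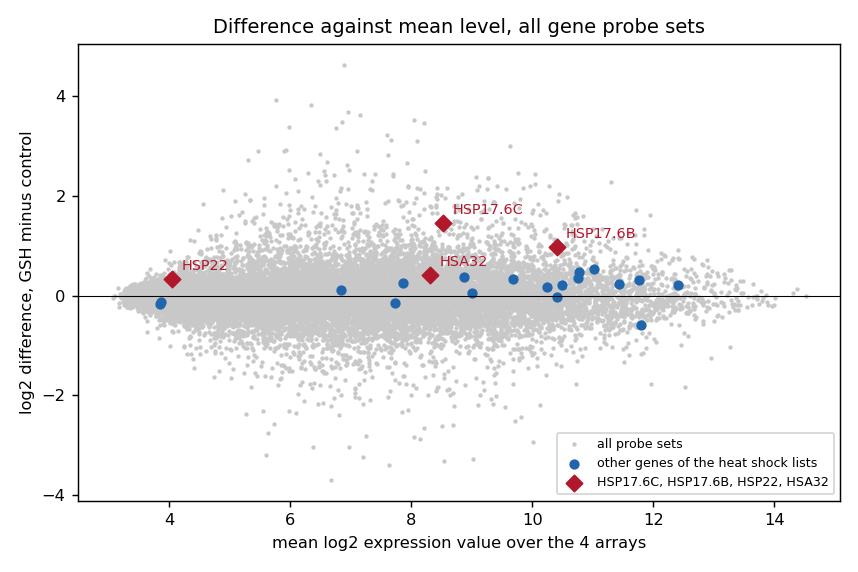
Log2 difference, GSH minus control (vertical axis), against the mean log2 value over the 4 arrays (horizontal axis) for all 22746 gene probe sets (grey), the 18 other measured genes of the heat shock lists (blue) and HSP17.6C, HSP17.6B, HSP22 and HSA32 (red). HSP17.6C and HSP17.6B lie above most of the cloud (percentiles 99.1 and 97.6 of the difference), HSA32 lies inside it (89.7), and HSP22 lies at the dim left end.

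For each gene, the 3 other genes with the most similar pattern were taken by the Euclidean distance over the 4 arrays of log2 values minus the control mean. Nearest to HSP17.6C were AT5G57510 (distance 0.05 log2 units), AT5G03610 (0.06) and AT5G40690 (0.06), with log2 differences of 1.46, 1.43 and 1.47. Nearest to HSP17.6B were AT1G32120 (0.03), AT2G16790 (0.03) and AT3G50520 (0.04), which rose by 0.96, 0.96 and 0.99. HSP17.6C and HSP17.6B themselves were 0.71 apart on this measure.

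Nearest to HSA32 were AT1G32530 (0.02), AT1G68410 (0.03) and AT3G51330 (0.03), with rises of 0.40, 0.40 and 0.41 log2 units. HSP22 was matched by PANB2 (0.04), AT4G15955 (0.04) and AT1G44960 (0.07), none of which passed and all of which had, like HSP22, a higher value on control replicate 1 than on control replicate 2. Sharing that split follows from how they were chosen. A likeness over 4 arrays is a weak description, and it ranks genes mainly by the size of their difference.

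**Figure D4:**
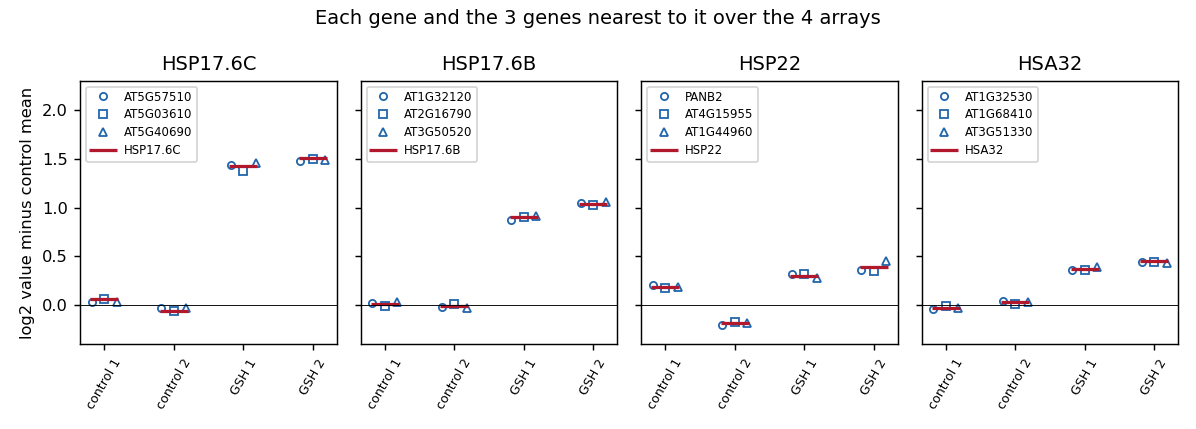
Log2 value minus the gene's own control mean (vertical axis) on each of the 4 arrays (horizontal axis) for HSP17.6C, HSP17.6B, HSP22 and HSA32 (red bars) and the 3 genes nearest to each (blue symbols, set side by side). The sets of 4 genes almost coincide, and in the HSP22 set control replicate 1 lies above control replicate 2 for all 4.

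Arrays within a group correlated at r = 0.998 across probe sets and arrays of different groups at 0.982, values that describe the arrays because probe sets are not independent replicates. Some control probe sets differed between the groups: 25S ribosomal RNA was lower on the GSH arrays (-2.97 log2 units) and 5S ribosomal RNA stood at 0.11. The 27 for spiked-in Bacillus RNA had a median of -0.26, with both GSH arrays below both control arrays for 19 and above for 1. The 18 hybridization controls had a median of -0.16, with both GSH arrays below for 11 and above for 0. The 17 other control probe sets, nearly all for actin, GAPDH and ubiquitin, had a median of 0.14, and 14 of them lay higher on both GSH arrays. Of 7 leaf markers 4 were measured and 2 were lower (LHCB4.2 at -0.42 and RCA at -0.24), with summed log2 values of 39.15 and 39.09 on the control arrays and 38.04 and 38.05 on the GSH arrays. Of 4 root markers 3 were measured and none passed (summed log2 values 12.63 to 12.77 against 12.13 to 12.64). None of 9 seed and 3 pollen markers was matched to a probe set with 1 gene. The small heat shock proteins that ripening seeds and pollen also make were therefore not checked against those tissues. The part of these shifts in the rises of the heat shock genes was not tested.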

How the data were processed

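Total RNA of whole seedlings was hybridized to 4 one-colour arrays. The authors deposited 1 log2 expression value for each probe set and array, computed in Affymetrix Expression Console by RMA (versions not given), per the submitters' processing notes. No further normalization was applied. Quantile normalization in RMA hides a change shared by most transcripts, and differences of very bright or dim probe sets are compressed. Of 22746 gene probe sets (64 control probe sets left out), 13513 carried 1 gene, 503 several and 8730 none, and 13436 matched RefSeq of assembly TAIR10.1. No genome build is named for the arrays, so no coordinates are given.

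The GSH effect was fitted for every probe set in R 4.3.3 using limma 3.58.1 (lmFit, eBayes, 2 residual degrees of freedom, prior 4.55), two-sided, Benjamini-Hochberg adjusted over all 22746 probe sets, threshold 0.05. The fit was also run on simulated data, with the spread drawn from its own prior and far fewer changed probe sets than were called here. That run checks the code and says nothing about these arrays. Errors are moderated standard errors, and having 4 arrays limits the precision.

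The 4 genes, the lists and the rules were chosen with earlier results of these data known. Named were the 4 genes, every measured gene of the lists, and the 3 genes nearest to each of the 4. The plan named every gene only for lists with at most 10 measured, but the small heat shock protein list, with 11, is named in full. A gene stands at its brightest probe set. Promoter and protein sequences were not used here, so the planned search for heat shock elements was not run. Alternatives covered normalization, dim probe sets, the prior, moderation, a replicate block and leaving out each array.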

Additional observations from a re-analysis of the deposited data

How the results depend on the processing

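HSP17.6C kept its direction and its call under all 12 alternatives run, with log2 differences from 1.41 to 1.53. HSP17.6B (0.91 to 1.04) and HSA32 (0.37 to 0.46) kept theirs under 11 of 12. Without moderation of the spread their differences of 0.97 and 0.41 had adjusted p-values of 0.056 and 0.0873, the calls over all probe sets went from 7680 to 1425 (728 higher, 697 lower), and those in the heat shock lists from 13 to 1, which is HSP17.6C. HSP22 passed with each array centred on its median (0.37, limma adjusted p = 0.0478), with an intensity trend in the prior (0.34, limma adjusted p = 0.0483) and without control replicate 1. Leaving out 1 array in turn, it ranged from 0.16 to 0.53, and removal of the lowest 25% of probe sets removed it. The heat shock lists had 8 to 10 genes past the threshold when 1 array was left out, 8 without GSH replicate 1 or without control replicate 2. Of the 10 other called genes of the lists, 4 (Fes1A, SGT1A, AT5G37670 and AT5G51440) lost their call in no alternative but the one without moderation, 3 lost it in 3 or 4 alternatives and 3 in 7 or 8. Centring on the median moved the balance of calls to 4043 higher and 3729 lower.

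The difference between the responses of HSP22 and HSA32 turned from -0.07 to 0.14 without control replicate 1 and went down to -0.28 without control replicate 2. Signs of uncalled genes near 0 turned as well. Centring gave 0.0017 for AT5G48570 and 0.0050 for AT1G53530. Leaving out 1 array in turn, AT4G02450 ranged from -0.0006 to 0.0979, AT1G52560 from -0.2757 to 0.0221, AT5G54660 from -0.0150 to 0.2226, AT1G53530 from -0.1457 to 0.1084 and AT4G10260 from -0.0348 to 0.2825. The causes were not tested.

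The groups share replicate numbers, but no label says that a number marks a shared culture or day, and deviations from the group means correlated at -0.103 across probe sets. With the replicate block 6235 probe sets passed in place of 7680 and 9 heat shock list genes in place of 13, the 4 lost being BOB1, AT3G09440, AT2G19310 and AT4G21870 (limma adjusted p = 0.108, 0.0934, 0.0929 and 0.0668). HSP17.6C, HSP17.6B and HSA32 stayed past the threshold (limma adjusted p = 0.00189, 0.00354 and 0.0191) and HSP22 did not (0.129). With crossed numbers, an alternative added after seeing the data, 6898 probe sets and 10 list genes passed.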

Other observations

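Values of the genes that lie beside the 4 heat shock genes on the chromosomes are given as a description, chosen after the values were seen. Of the 24 protein-coding genes within 3 places on either side in the RefSeq order, 9 were measured by a probe set with 1 gene. Of these 9, 0 were called higher by limma (1 at an unadjusted p under 0.05, AT4G21323), 3 lower and 6 did not pass, beside 16.2% higher and 17.5% lower over all probe sets, and so few genes show nothing about neighbours in general. AT2G29510, the next gene after HSP17.6B, fell by 1.22 ± 0.08 log2 units (SE, n = 2 per group, limma adjusted p = 0.000109). It went from 8.03 and 7.88 in controls to 6.78 and 6.69 with GSH, a change opposite in sign to that of HSP17.6B. The sizes of these 2 changes were not tested against each other. Without moderation of the spread the call for AT2G29510 was lost (adjusted p = 0.0564).

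AT1G53530, the gene before HSP17.6C, stood at -0.02 ± 0.10 with groups that overlapped. AT4G21310, the gene before HSA32, fell by 0.50 ± 0.11 log2 units (5.84 and 5.69 against 5.41 and 5.13, limma adjusted p = 0.0138). AT4G21323, the gene after HSA32, stood at 0.35 ± 0.11 and did not pass (limma adjusted p = 0.0564), with no overlap between the groups. It passed in 5 of 12 alternatives: without control replicate 1 (limma adjusted p = 0.00645), with centring on the median (0.034), with quantile normalization run again (0.0452), with an intensity trend (0.046) and after removal of the dimmest 25% of probe sets (0.0488). Near HSP22, AT4G10270 fell by 0.58 ± 0.10 (limma adjusted p = 0.00533), while AT4G10220 (-0.11) and AT4G10260 (0.12) did not pass. AT4G10220 lay within the lowest 25% of mean values, with the same doubt about a signal over background as for HSP22. The mean of AT4G10260 lay close above the limit of that 25%. For AT4G21310 the call was lost without GSH replicate 2 (log2 difference -0.36). It was also lost without moderation of the spread (adjusted p = 0.221) and with crossed replicate numbers (limma adjusted p = 0.0595). Also near HSA32, SBT3.12 stood at -0.39 ± 0.21 and AT4G21300 at 0.10 ± 0.08, each with groups that did not overlap. Neither passed (limma adjusted p = 0.208 and 0.381). For SBT3.12 GSH replicate 2 (5.33) lay close below the control arrays (5.35 and 5.37), and GSH replicate 1 stood at 4.61. Its log2 difference was -0.03 without GSH replicate 1 and -0.75 without GSH replicate 2. AT4G21300 lay within the lowest 25% of mean values, with the same doubt about a signal over background as for HSP22.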
